A study of Drosophila melanogaster with 18 samples.

Results

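The odorant-binding protein (Obp) genes of *Drosophila melanogaster* were examined in larvae that expressed the mammalian protein DNMT3L over successive generations. Members were the probe sets of an expression array whose annotated gene symbol begins with Obp and a number. This rule uses no measured value, although the genes were chosen for description with earlier results of these data known. There were 45 such probe sets for 43 gene symbols, of 16322 probe sets on the array, of which 2392 carry 1 gene symbol. Obp50b and Obp57d each have 2 probe sets with identical values, and each gene was counted once. RefSeq names 51 Obp genes, and 8 of them have no probe set named for them here, namely Obp28a, Obp44a, Obp50c, Obp57c, Obp73a, Obp83a, Obp85a and Obp99a, and so were not analysed here.

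RNA from pools of whole larvae of the third instar was hybridised to 18 arrays, 2 for each of 9 groups. Tub-3L larvae carried a UAS-DNMT3L transgene, inserted as 1 line on the second chromosome, together with tubulin-GAL4, a driver that is active in nearly every cell, and were followed as Tub-3L G1, Tub-3L G2, Tub-3L G4 and Tub-3L G5. Tub-3L G5P is the group labelled as phenotype of G5, larvae with melanotic tumors, which are dark masses of blood cells. Tub-3L G20* larvae had lost the driver, and their title names generation 20 while their description names generation 5. UAS-3L G5 and UAS-3L G1 larvae carried the transgene without a driver, and w1118 larvae came from the recipient strain of the injections and had neither the transgene nor the driver. The purpose of the series was to follow expression over generations of DNMT3L, and each group is set against UAS-3L G1, so all 8 of those comparisons share the same 2 arrays. The arrays of a group held RNA from separate pools of larvae, and nothing in the sources used here says that these came from separate crosses, so that p-values measure the spread between such pools only.

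Odorant-binding proteins are small soluble proteins that support cells of insect sense organs secrete into the fluid around sensory neurons, where they bind odorants and pheromones. Classical members have conserved cysteines in pairs, Minus-C members lack some of these, and Plus-C members have additional ones. Several members are not made in sense organs at all: some are secreted by the male accessory gland into seminal fluid, and others are made in fat body, taste organs, gut or glia. A larva has a small set of smell and taste neurons in its head organs, while antennal members in the usual sense are those of the adult olfactory organ, so that larval and adult antennal members are described separately.

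Values are log2 signals, on which a difference of 1 is 2-fold, and a level cannot be compared between probe sets of different genes, since each probe set has its own brightness. The lower quartile of an array lay between 4.16 and 4.57, its median between 6.17 and 6.39 and its upper quartile between 7.82 and 8.0. In UAS-3L G1, 29 of the 43 members were under the lower quartile, 7 lay between it and the median, 2 between the median and the upper quartile, and 5 were over the upper quartile, namely Obp49a, Obp56a, Obp56d, Obp99b and Obp99c. On every one of the 18 arrays, 15 members stayed under the lower quartile. The larvae were also checked against genes of larval and adult tissues. The 6 glue protein genes (Sgs), which the salivary gland makes late in the third instar, had a mean log2 signal of 3.76 and 3.77 in Tub-3L G5P, under the lower quartile of the arrays, 8.33 and 8.39 in Tub-3L G5 and 8.81 and 8.92 in Tub-3L G4, against 11.0 and 11.1 in UAS-3L G1. The mean of 7 genes of the adult male accessory gland (Acp) was 6.81 and 6.92 in Tub-3L G4, 7.58 and 7.59 in Tub-3L G5 and 6.11 in both Tub-3L G5P arrays, against 3.07 and 3.14 in UAS-3L G1. These 3 groups therefore differed in the markers of a larval and of an adult tissue, and in whole-larva RNA a change in the number of cells of a type and a change in RNA per cell cannot be told apart.

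Members were called where limma's moderated test gave an adjusted p under 0.05, with Benjamini-Hochberg adjustment over all 16322 probe sets, and the difference was at least 2-fold. Of the 43 members, 27 were called in at least 1 of the 8 comparisons with UAS-3L G1 and 16 in none. Few were called in the first generations. In Tub-3L G1, 0 members rose and 2 fell (4.65%), beside 1.23% of all probe sets that rose and 1.72% that fell. In Tub-3L G2, 1 rose (2.33%) and 4 fell (9.30%), beside 3.38% and 2.24% of all probe sets. The counts were larger from Tub-3L G4 on, where 12 rose (27.9%) and 6 fell (14.0%), beside 7.54% and 4.85%. In Tub-3L G5, 14 rose (32.6%) and 9 fell (20.9%), beside 13.0% and 10.2%. In Tub-3L G5P, 12 rose and 12 fell (27.9% each), beside 15.2% and 13.7%. The members' shares in Tub-3L G4, Tub-3L G5 and Tub-3L G5P thus lay above the share of all probe sets in both directions, with no test of that difference.

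Fewer members were called in the 3 groups without the driver than in Tub-3L G4, Tub-3L G5 and Tub-3L G5P. None of the members was called in Tub-3L G20*, where limma called 0.882% of all probe sets higher and 0.778% lower, or in UAS-3L G5, where it called 1.0% and 0.711%. With shares this low, 0 calls among 43 members is near the share of all probe sets. At an unadjusted p under 0.05, 7 of the 43 members differed in Tub-3L G20* and 4 in UAS-3L G5. Of all 16322 probe sets, 4468 and 4561 did so, a larger share than of the members. The methods' t-test called 0 members in both. In w1118, 4 members rose (9.30%) and 0 fell, beside 2.36% and 1.85% of all probe sets. That was more calls than in Tub-3L G1, which has the driver. The methods' t-test, and a fit of only the groups compared, called 2 in each of these groups. The median log2 fold change of the members was close to that of all probe sets, at -0.20 against 0.02 in Tub-3L G5 and -0.21 against 0.01 in Tub-3L G5P.

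**Figure D1:**
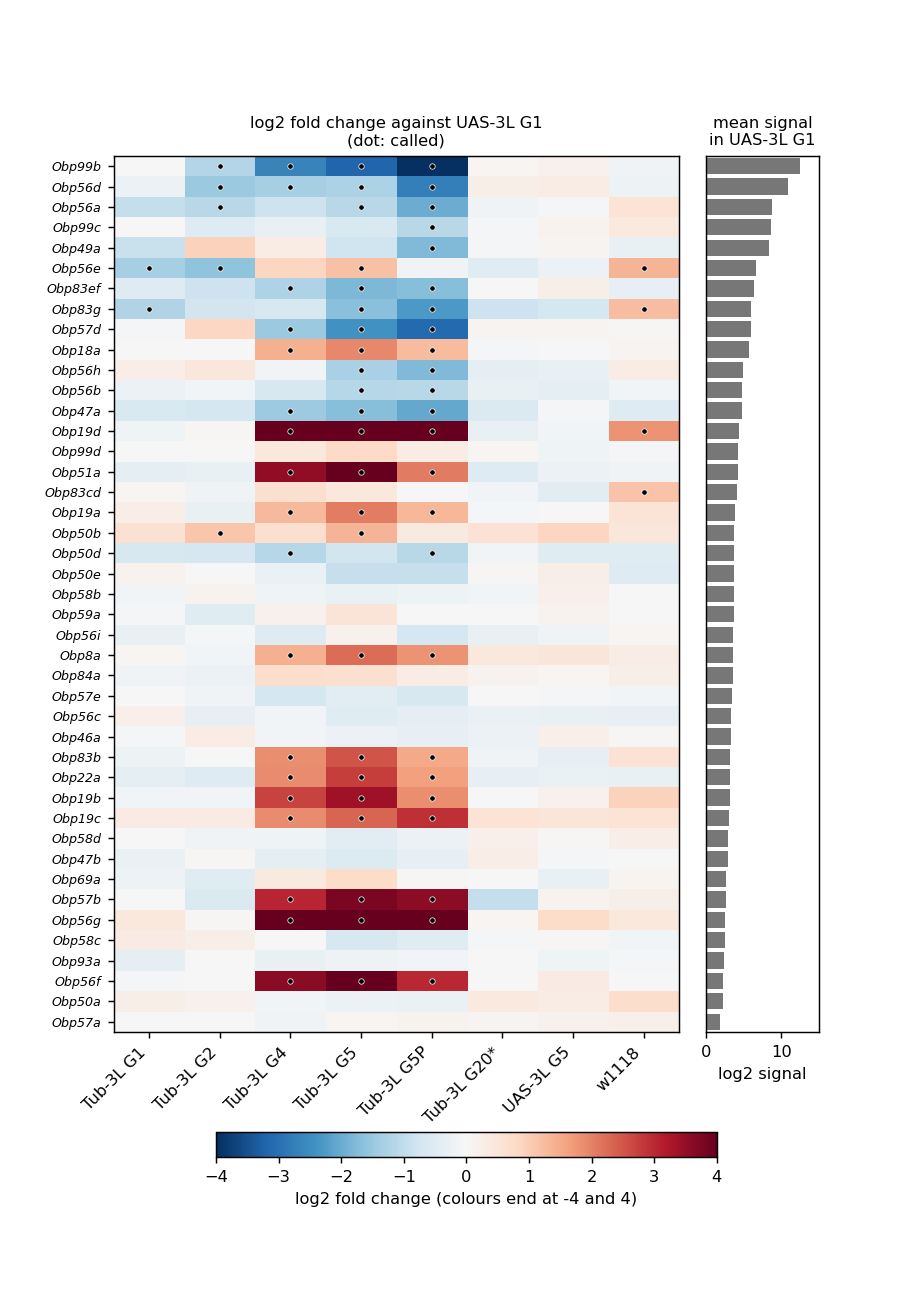
Log2 fold change of the 43 members (rows, from the brightest to the dimmest in UAS-3L G1) in 8 groups (columns) against UAS-3L G1, with a dot where limma called the difference, and the mean log2 signal in UAS-3L G1 as bars. Dots gather in the columns of Tub-3L G4, Tub-3L G5 and Tub-3L G5P, where Obp56g and Obp19d are the darkest red rows and Obp99b the darkest blue.

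The same members recurred in the later groups. The 12 that rose in Tub-3L G4 all rose in Tub-3L G5 and in Tub-3L G5P as well, and 17 members were called in the same direction in all 3 groups, which share their control arrays. The share of all probe sets that recurred in this way was not computed, so recurrence is not shown to be particular to these genes.

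The member with the largest increase, Obp56g, is on the list of seminal fluid genes. This list was drawn up with earlier results of these data known. All 7 of these genes were measured, and 5 rose in Tub-3L G4, 6 in Tub-3L G5 and 5 in Tub-3L G5P, while 0 fell. Their medians were 1.90, 2.75 and 1.80 on the log2 scale. Of all probe sets, 7.54%, 13.0% and 15.2% rose in these 3 groups and 4.85%, 10.2% and 13.7% fell. Obp56g, a seminal fluid protein needed for the mating plug and the female's response to mating, had a log2 signal of 3.28 and 2.69 in Tub-3L G1, 2.58 and 2.63 in Tub-3L G2, 9.21 and 9.07 in Tub-3L G4, 9.70 and 9.86 in Tub-3L G5 and 8.04 and 8.17 in Tub-3L G5P. Without the driver, Obp56g gave 2.59 and 2.71 in Tub-3L G20*, 3.15 and 3.44 in UAS-3L G5, 3.86 and 2.10 in w1118, and 2.40 and 2.71 in UAS-3L G1. Its 6 arrays from Tub-3L G4, Tub-3L G5 and Tub-3L G5P lay far above the other 12, which were all under the lower quartile. The log2 fold change was 6.58 ± 0.40 (SE) in Tub-3L G4 (adjusted p = 1.02e-07), 7.22 ± 0.40 in Tub-3L G5 (adjusted p = 1.75e-08) and 5.55 ± 0.40 in Tub-3L G5P (adjusted p = 1.23e-07), the largest increase of any member in each of these groups, 149-fold in Tub-3L G5.

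Obp56f gave 2.23 and 2.11 in Tub-3L G1, 2.10 and 2.27 in Tub-3L G2, 5.82 and 5.81 in Tub-3L G4, 6.83 and 6.52 in Tub-3L G5 and 5.34 and 5.12 in Tub-3L G5P. Without the driver, Obp56f gave 2.13 and 2.30 in Tub-3L G20*, 2.18 and 2.90 in UAS-3L G5, 2.19 and 2.28 in w1118, and 2.37 and 2.06 in UAS-3L G1. The same 6 arrays stood apart, with log2 fold changes of 3.61 ± 0.20, 4.46 ± 0.20 and 3.02 ± 0.20 in Tub-3L G4, Tub-3L G5 and Tub-3L G5P (adjusted p = 4.93e-08 in Tub-3L G5P). Obp51a gave 4.06 and 3.68 in Tub-3L G1, 3.91 and 3.92 in Tub-3L G2, 7.77 and 7.75 in Tub-3L G4, 8.39 and 8.26 in Tub-3L G5 and 6.31 and 6.27 in Tub-3L G5P. Without the driver, Obp51a gave 3.37 and 4.03 in Tub-3L G20*, 4.29 and 3.65 in UAS-3L G5, 4.12 and 4.02 in w1118, and 4.47 and 3.96 in UAS-3L G1. Its increase was 11.6-fold in Tub-3L G4 and 17.2-fold in Tub-3L G5, and the smallest of the 3 in Tub-3L G5P, at 4.20-fold (adjusted p = 9.41e-06), again without overlap with any other group. The interval of Obp51a overlaps that of hbs in RefSeq, so that the probe set may not separate these genes.

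Obp22a had a log2 signal of 2.59 and 3.02 in Tub-3L G1, 2.62 and 2.68 in Tub-3L G2, 5.26 and 4.85 in Tub-3L G4, 5.95 and 5.86 in Tub-3L G5 and 4.93 and 4.64 in Tub-3L G5P. Without the driver, Obp22a gave 2.63 and 3.02 in Tub-3L G20*, 3.26 and 2.49 in UAS-3L G5, 2.81 and 2.89 in w1118, and 3.37 and 2.94 in UAS-3L G1. It stayed under the lower quartile on the other 12 arrays and rose 3.73-fold in Tub-3L G4, 6.73-fold in Tub-3L G5 (adjusted p = 1.51e-06) and 3.10-fold in Tub-3L G5P. Obp8a, a Minus-C member, had 3.58 and 3.73 in Tub-3L G1, 3.23 and 3.71 in Tub-3L G2, 5.06 and 4.95 in Tub-3L G4, 5.58 and 6.05 in Tub-3L G5 and 5.33 and 5.43 in Tub-3L G5P. Without the driver, Obp8a gave 3.95 and 4.08 in Tub-3L G20*, 4.22 and 3.90 in UAS-3L G5, 3.84 and 3.95 in w1118, and 3.26 and 3.91 in UAS-3L G1. The increase was 2.68-fold, 4.69-fold and 3.48-fold in Tub-3L G4, Tub-3L G5 and Tub-3L G5P, with adjusted p-values of 0.000254, 3.04e-06 and 1.5e-05.

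Obp56e behaved differently from the rest of the seminal fluid list. Its log2 signal was 5.42 and 5.27 in Tub-3L G1, 5.18 and 4.93 in Tub-3L G2, 7.63 and 7.46 in Tub-3L G4, 7.93 and 7.75 in Tub-3L G5 and 6.57 and 6.50 in Tub-3L G5P. Without the driver, Obp56e gave 6.26 and 6.15 in Tub-3L G20*, 6.53 and 6.33 in UAS-3L G5, 8.08 and 7.98 in w1118, and 6.83 and 6.52 in UAS-3L G1. Signal was lowest in Tub-3L G1 and Tub-3L G2, below every other array, and highest in w1118, above every other array. Relative to UAS-3L G1 it fell by 1.33 in Tub-3L G1 (adjusted p = 2.72e-05) and by 1.62 in Tub-3L G2 (adjusted p = 4.45e-06) on the log2 scale, and rose by 1.16 in Tub-3L G5 (adjusted p = 9.02e-06) and by 1.35 in w1118 (adjusted p = 2.21e-05). In Tub-3L G5P the difference was -0.14 ± 0.13 and was not called. An antisense RNA gene, asRNA:CR44509, overlaps Obp56e in RefSeq. The last gene of the list, Obp56i, stayed between 2.99 and 4.11 over the 18 arrays and was called in no group.

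The increases of the seminal fluid members went along with those of the 7 accessory gland genes that were measured. Members outside the seminal fluid list followed a like course over the 18 arrays. Examples are Obp18a with Obp56f (Pearson r = 0.9838), Obp19d with Obp56g (r = 0.9623) and Obp57b with Obp56g (r = 0.9583). In Tub-3L G4 and in Tub-3L G5 all 7 Acp genes rose, with log2 fold changes between 1.95 and 6.49 and between 2.52 and 7.16. In Tub-3L G5P 6 of the 7 rose. Over all probe sets, 7.54%, 13.0% and 15.2% rose in these 3 groups. In Tub-3L G1, Tub-3L G2, Tub-3L G20*, UAS-3L G5 and w1118 both lists stayed near their level in UAS-3L G1, with array means of the Acp list between 2.64 and 3.13. The part of the accessory gland, or of the stage and sex of the larvae, in the Obp result was not tested.

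**Figure D2:**
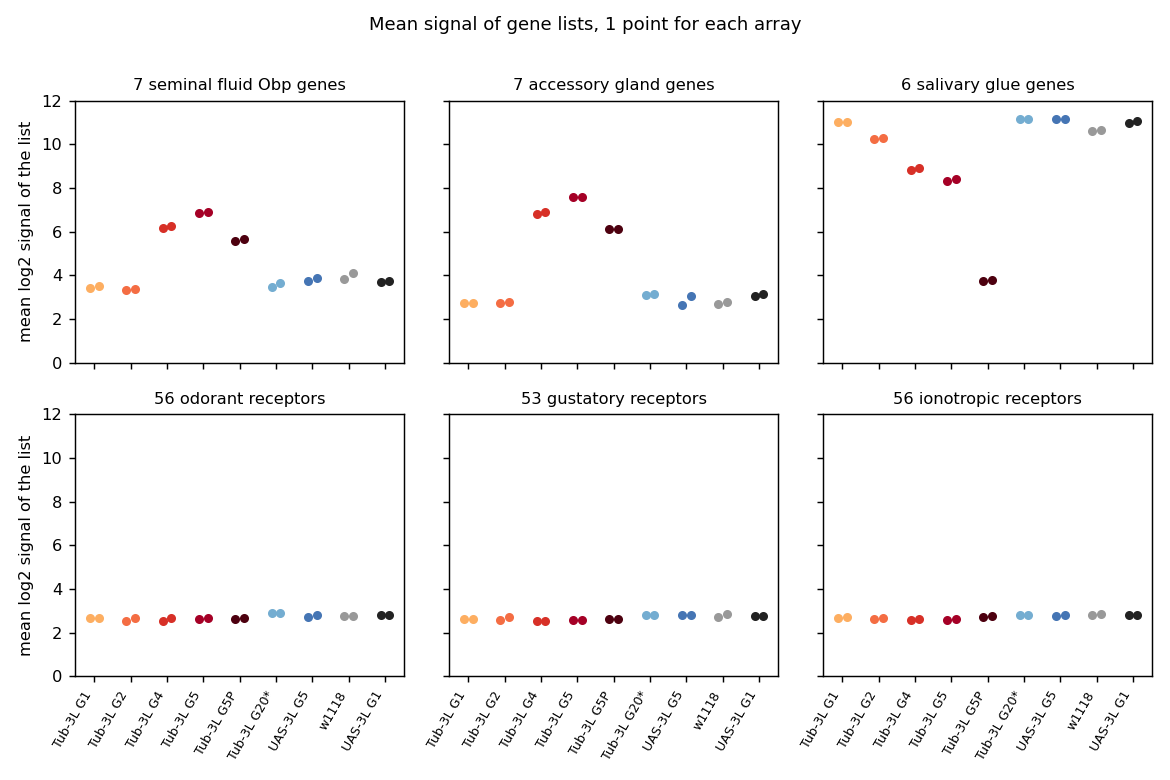
Mean log2 signal of 6 gene lists on each of the 2 arrays of the 9 groups. The seminal fluid Obp genes and the accessory gland genes are high in Tub-3L G4, Tub-3L G5 and Tub-3L G5P, the salivary glue genes are lowest in Tub-3L G5P, and the 3 receptor families lie between 2.52 and 2.91 on all arrays.

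Of the 11 listed adult antennal members, 7 were measured. In Tub-3L G4, Tub-3L G5 and Tub-3L G5P alike, Obp19a, Obp19d and Obp83b rose and Obp56d fell. Of all probe sets, 7.54%, 13.0% and 15.2% rose in these 3 groups and 4.85%, 10.2% and 13.7% fell. Obp19d, which is made by support cells of antennal and taste sensilla and is also on the larval list, had a log2 signal of 4.34 and 4.21 in Tub-3L G1, 4.69 and 4.27 in Tub-3L G2, 9.26 and 9.17 in Tub-3L G4, 9.79 and 9.97 in Tub-3L G5 and 8.76 and 9.31 in Tub-3L G5P. Without the driver, Obp19d gave 3.92 and 4.33 in Tub-3L G20*, 3.73 and 4.95 in UAS-3L G5, 7.18 and 5.29 in w1118, and 4.19 and 4.68 in UAS-3L G1. The 6 arrays of Tub-3L G4, Tub-3L G5 and Tub-3L G5P lay between 8.76 and 9.97, above every other array, and w1118 was the next highest, with 2 arrays that differed widely. The log2 fold change was 4.77 ± 0.51, 5.44 ± 0.51 and 4.60 ± 0.51 in these 3 groups (adjusted p = 5.96e-06 in Tub-3L G5P), 43.5-fold in Tub-3L G5. In w1118 it was 1.79 ± 0.51 (adjusted p = 0.0205), a call that was lost without w1118 replicate 1, where the value was 0.85 with an adjusted p of 0.181, and without UAS-3L G1 replicate 1 (adjusted p = 0.11). Without w1118 replicate 2 the value was 2.74.

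Obp83b, an antennal protein of the trichoid sensilla also known as OS-E, had 3.19 and 2.82 in Tub-3L G1, 3.31 and 3.16 in Tub-3L G2, 5.05 and 5.09 in Tub-3L G4, 5.74 and 5.71 in Tub-3L G5 and 4.86 and 4.62 in Tub-3L G5P. Without the driver, Obp83b gave 2.62 and 3.57 in Tub-3L G20*, 3.25 and 2.54 in UAS-3L G5, 4.18 and 3.44 in w1118, and 3.08 and 3.36 in UAS-3L G1. It rose 3.60-fold, 5.67-fold and 2.86-fold in Tub-3L G4, Tub-3L G5 and Tub-3L G5P (adjusted p = 0.00113 in the last), with no overlap with other groups. Obp19a had 4.07 and 4.26 in Tub-3L G1, 3.58 and 3.67 in Tub-3L G2, 4.95 and 5.48 in Tub-3L G4, 5.61 and 6.29 in Tub-3L G5 and 4.75 and 5.73 in Tub-3L G5P. Without the driver, Obp19a gave 4.15 and 3.61 in Tub-3L G20*, 3.78 and 4.08 in UAS-3L G5, 5.03 and 3.89 in w1118, and 3.72 and 4.11 in UAS-3L G1. Here 1 array of w1118 lay above the lower arrays of Tub-3L G4 and Tub-3L G5P, and the spread within groups was wide. Its log2 fold change was 1.3 ± 0.39 in Tub-3L G4 (adjusted p = 0.019), 2.04 ± 0.39 in Tub-3L G5 (adjusted p = 0.000787) and 1.33 ± 0.39 in Tub-3L G5P (adjusted p = 0.011). Without UAS-3L G1 replicate 1, the adjusted p was 0.106 in Tub-3L G4 and 0.0716 in Tub-3L G5P, and without the second array of either group it was 0.131 in Tub-3L G4 and 0.128 in Tub-3L G5P.

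Obp56d moved the other way. It was over the upper quartile in UAS-3L G1 larvae, so its place on the antennal list does not make it particular to the adult. Its log2 signal was 10.67 and 10.63 in Tub-3L G1, 9.49 and 9.31 in Tub-3L G2, 9.56 and 9.56 in Tub-3L G4, 9.57 and 9.67 in Tub-3L G5 and 8.21 and 8.10 in Tub-3L G5P. Without the driver, Obp56d gave 11.11 and 11.12 in Tub-3L G20*, 11.16 and 11.17 in UAS-3L G5, 10.69 and 10.66 in w1118, and 10.88 and 10.90 in UAS-3L G1. All 8 arrays of Tub-3L G2, Tub-3L G4, Tub-3L G5 and Tub-3L G5P lay below the other 10, those of Tub-3L G5P lowest. The decrease on the log2 scale was -1.49 ± 0.08 in Tub-3L G2 (adjusted p = 1.61e-07), -1.32 ± 0.08 in Tub-3L G4, -1.27 ± 0.08 in Tub-3L G5 and -2.73 ± 0.08 in Tub-3L G5P (adjusted p = 2.73e-11), the last 6.63-fold. The other antennal members were not called in any of the 8 comparisons. Obp59a, which takes part in the sensing of humidity, ranged from 3.15 to 4.26, Obp69a from 2.14 to 3.55 and Obp84a from 3.14 to 4.60.

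The larval list has 5 genes, of which only Obp19d and Obp99b were measured. Obp99b gave the largest decrease of any member in Tub-3L G4, Tub-3L G5 and Tub-3L G5P. Its log2 signal was 12.50 and 12.55 in Tub-3L G1, 11.36 and 11.34 in Tub-3L G2, 9.86 and 9.84 in Tub-3L G4, 9.21 and 9.48 in Tub-3L G5 and 6.43 and 6.41 in Tub-3L G5P. Without the driver, Obp99b gave 12.62 and 12.56 in Tub-3L G20*, 12.67 and 12.71 in UAS-3L G5, 12.32 and 12.41 in w1118, and 12.50 and 12.52 in UAS-3L G1. Signal was lower in each later generation with the driver and lowest in Tub-3L G5P, while the arrays without the driver and those of Tub-3L G1 lay between 12.32 and 12.71. On the log2 scale it fell by 1.16 in Tub-3L G2 (adjusted p = 2.95e-06), by 2.66 in Tub-3L G4, by 3.16 in Tub-3L G5 and by 6.09 in Tub-3L G5P (adjusted p = 5.97e-14), with a standard error of 0.09 for each. The decrease in Tub-3L G5P was 68.2-fold, whereas the difference in Tub-3L G1 was not called (0.02 ± 0.09, 95% interval -0.17 to 0.21).

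The fall of Obp99b went along with that of the salivary glue genes. Of these, 2 of 6 fell in Tub-3L G2 and all 6 in Tub-3L G4, Tub-3L G5 and Tub-3L G5P. In the latter 3 groups their median log2 fold change was -2.20, -2.63 and -7.83. Of all probe sets, 2.24% fell in Tub-3L G2 and 4.85%, 10.2% and 13.7% in these 3 groups. Over the 18 arrays the 3 named probe sets most like Obp99b were CG13722 (Pearson r = 0.9866), Pxd (r = 0.9856) and the glue gene Sgs8 (r = 0.9814). These are descriptions over arrays that fall into the same 9 groups, and the part of the salivary gland in the result was not tested. For Obp56d, the genes most alike were Sgs1 (r = 0.9529), Fuca (r = 0.9436) and Obp99b itself (r = 0.9342). Obp19d went with Arr2 (r = 0.9901) and Arr1 (r = 0.9857), the arrestins of photoreceptor cells, and with Scp1 (r = 0.984). Those most like Obp56e were Gapdh1 (r = 0.8939), CG5793 (r = 0.8851) and Pfk (r = 0.8835), and those most like Obp83g were GstD7 (r = 0.9697), Skel (r = 0.9449) and JhI-26 (r = 0.9427).

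**Figure D3:**
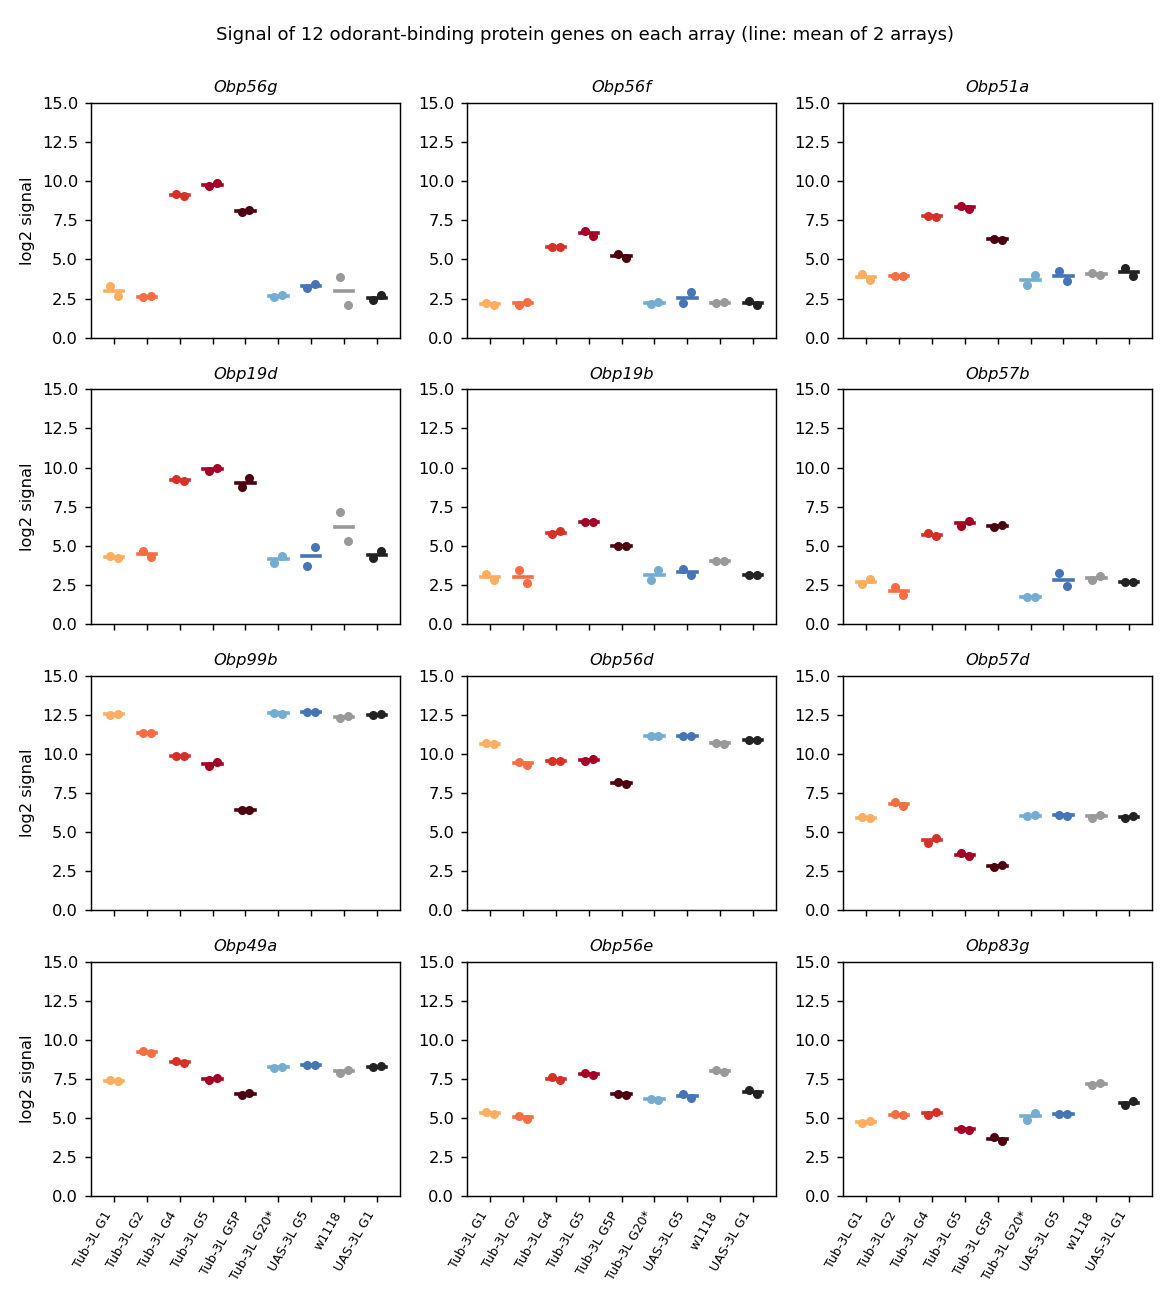
Log2 signal of 12 members on each of the 2 arrays of the 9 groups, with a line at each mean. Obp56g, Obp56f, Obp51a, Obp19d, Obp19b and Obp57b are high in Tub-3L G4, Tub-3L G5 and Tub-3L G5P, Obp99b, Obp56d and Obp57d are lowest in Tub-3L G5P, and Obp49a, Obp56e and Obp83g follow other courses.

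The Obp19 genes are 4 neighbours on the X chromosome with no other gene between them, and all 4 rose in Tub-3L G4, Tub-3L G5 and Tub-3L G5P. Obp19b had a log2 signal of 3.22 and 2.84 in Tub-3L G1, 3.44 and 2.62 in Tub-3L G2, 5.72 and 5.93 in Tub-3L G4, 6.55 and 6.49 in Tub-3L G5 and 4.95 and 5.0 in Tub-3L G5P. Without the driver, Obp19b gave 2.80 and 3.47 in Tub-3L G20*, 3.50 and 3.11 in UAS-3L G5, 4.05 and 4.05 in w1118, and 3.11 and 3.15 in UAS-3L G1. It rose 6.49-fold in Tub-3L G4, 10.5-fold in Tub-3L G5 (adjusted p = 2.89e-07) and 3.60-fold in Tub-3L G5P, above all other arrays. Obp19c had 3.27 and 3.47 in Tub-3L G1, 3.28 and 3.47 in Tub-3L G2, 5.10 and 4.80 in Tub-3L G4, 5.49 and 5.25 in Tub-3L G5 and 6.00 and 5.93 in Tub-3L G5P. Without the driver, Obp19c gave 3.62 and 3.56 in Tub-3L G20*, 3.53 and 3.53 in UAS-3L G5, 3.75 and 3.42 in w1118, and 3.19 and 2.91 in UAS-3L G1. Unlike its neighbours, it was highest in Tub-3L G5P, with log2 fold changes of 1.91 ± 0.15, 2.32 ± 0.15 and 2.92 ± 0.15 (adjusted p = 4.8e-09 in Tub-3L G5P), and its interval for Tub-3L G5P minus Tub-3L G5 was 0.27 to 0.92. Obp18a, also on the X chromosome, had 5.81 and 5.63 in Tub-3L G1, 5.56 and 5.87 in Tub-3L G2, 7.04 and 7.29 in Tub-3L G4, 7.68 and 7.62 in Tub-3L G5 and 6.99 and 7.02 in Tub-3L G5P. Without the driver, Obp18a gave 5.68 and 5.71 in Tub-3L G20*, 5.70 and 5.75 in UAS-3L G5, 5.80 and 5.89 in w1118, and 5.54 and 5.92 in UAS-3L G1. Its arrays in the 3 later groups lay above all others, and it rose 2.70-fold, 3.78-fold and 2.41-fold (adjusted p = 4.81e-06 in Tub-3L G5P). With Obp8a, all 6 members of the X chromosome rose in each of these 3 groups, and 4 of these are the neighbouring Obp19 genes. Of the 26 members of arm 2R, 4 rose and 4 fell in Tub-3L G4, and 6 rose and 6 fell in Tub-3L G5. In Tub-3L G5P, 4 of these 26 rose and 8 fell. Over the whole array 7.54%, 13.0% and 15.2% of probe sets rose in these 3 groups, and 4.85%, 10.2% and 13.7% fell. Shares of all probe sets by arm were not computed, so these counts show no difference between arms.

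**Figure D4:**
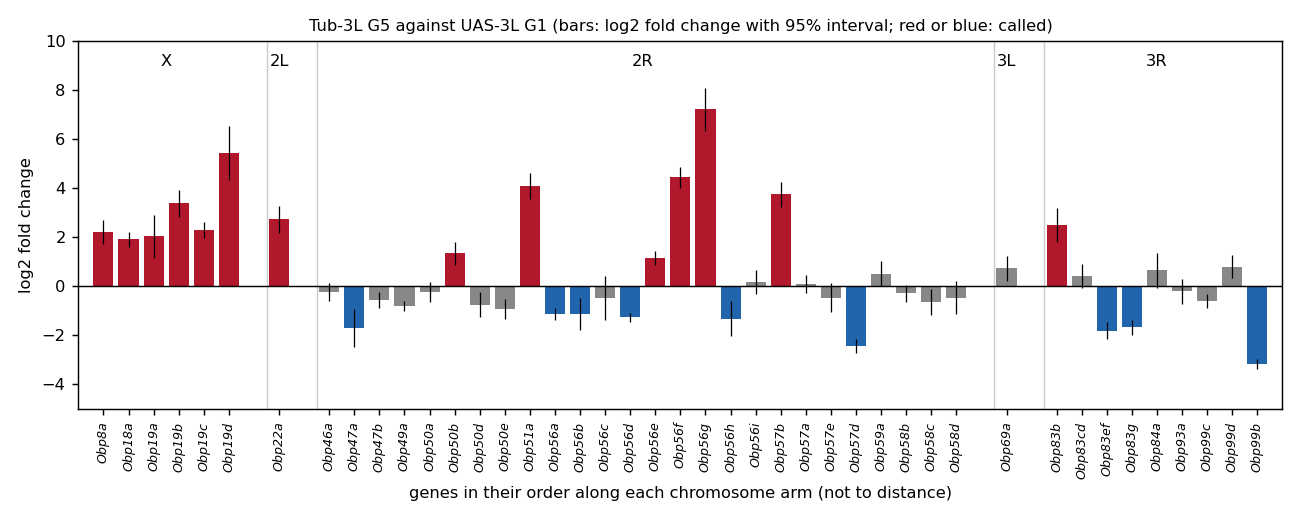
Log2 fold change in Tub-3L G5 against UAS-3L G1 with its 95% interval, for the 43 members in their order along each chromosome arm, in red or blue where called. All 6 bars of X are red, and among the Obp56 and Obp57 genes of 2R there are both red and blue bars.

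The 9 Obp56 genes lie on arm 2R in 2 groups, Obp56a to Obp56f and Obp56g to Obp56i, with 112 other genes between them, and neither group was called in 1 direction throughout. In Tub-3L G5, 3 rose (Obp56e, Obp56f and Obp56g) and 4 fell (Obp56a, Obp56b, Obp56d and Obp56h), beside 13.0% and 10.2% of all probe sets. Obp56c and Obp56i were not called. Obp56a had a log2 signal of 7.86 and 7.69 in Tub-3L G1, 7.75 and 7.51 in Tub-3L G2, 7.92 and 7.90 in Tub-3L G4, 7.48 and 7.77 in Tub-3L G5 and 6.67 and 6.87 in Tub-3L G5P. Without the driver, Obp56a gave 8.61 and 8.58 in Tub-3L G20*, 8.69 and 8.68 in UAS-3L G5, 9.33 and 9.28 in w1118, and 8.76 and 8.73 in UAS-3L G1. All 10 arrays with the driver lay below all 8 without it. It fell 2.16-fold in Tub-3L G2 (adjusted p = 2.65e-05), 2.17-fold in Tub-3L G5 and 3.93-fold in Tub-3L G5P (adjusted p = 1.57e-08), and the differences of -0.97 in Tub-3L G1 and -0.84 in Tub-3L G4 were less than 2-fold. Without Tub-3L G2 replicate 2 the difference in Tub-3L G2 was -0.99, and without Tub-3L G5 replicate 1 that in Tub-3L G5 was -0.97, both just under 2-fold.

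Obp56h, which affects male courtship, had 4.95 and 5.47 in Tub-3L G1, 5.36 and 5.43 in Tub-3L G2, 5.06 and 4.65 in Tub-3L G4, 3.75 and 3.54 in Tub-3L G5 and 3.84 and 2.54 in Tub-3L G5P. Without the driver, Obp56h gave 4.55 and 4.63 in Tub-3L G20*, 4.53 and 4.78 in UAS-3L G5, 5.33 and 5.19 in w1118, and 5.12 and 4.79 in UAS-3L G1. Its 4 arrays of Tub-3L G5 and Tub-3L G5P were the lowest, and it fell by 1.31 (adjusted p = 0.00426) and by 1.77 (adjusted p = 0.000445) on the log2 scale in these groups. The arrays of Tub-3L G5P differed widely, the fall there was 1.11 without Tub-3L G5P replicate 2 and 2.42 without Tub-3L G5P replicate 1, and the methods' t-test did not call it. Obp56b had 4.32 and 4.83 in Tub-3L G1, 4.39 and 5.02 in Tub-3L G2, 4.57 and 3.79 in Tub-3L G4, 3.47 and 3.89 in Tub-3L G5 and 3.39 and 4.01 in Tub-3L G5P. Without the driver, Obp56b gave 4.74 and 4.31 in Tub-3L G20*, 4.39 and 4.51 in UAS-3L G5, 4.70 and 4.67 in w1118, and 4.73 and 4.89 in UAS-3L G1. It fell by 1.13 in Tub-3L G5 and by 1.11 in Tub-3L G5P, with 1 array of Tub-3L G4 inside their range. Both calls of Obp56b were lost against UAS-3L G5, with differences of -0.77 and -0.75, and when the first array of Tub-3L G5 or of Tub-3L G5P was left out (adjusted p = 0.0618 and 0.0767). Obp56c ranged from 2.40 to 3.82 and was called in no group.

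In the Obp57 group 4 of the 5 listed genes were measured, and Obp57b and Obp57d moved in opposite directions. Obp57b had 2.53 and 2.88 in Tub-3L G1, 2.35 and 1.87 in Tub-3L G2, 5.83 and 5.60 in Tub-3L G4, 6.29 and 6.58 in Tub-3L G5 and 6.19 and 6.36 in Tub-3L G5P. Without the driver, Obp57b gave 1.75 and 1.73 in Tub-3L G20*, 3.23 and 2.44 in UAS-3L G5, 2.79 and 3.05 in w1118, and 2.70 and 2.66 in UAS-3L G1. Its arrays in Tub-3L G4, Tub-3L G5 and Tub-3L G5P were above all others, and it rose 8.20-fold, 13.5-fold and 12.1-fold (adjusted p = 4.97e-08 in Tub-3L G5P). Obp57d, which together with Obp57e shapes the choice of egg-laying sites in *Drosophila*, had 5.95 and 5.89 in Tub-3L G1, 6.92 and 6.66 in Tub-3L G2, 4.31 and 4.60 in Tub-3L G4, 3.63 and 3.44 in Tub-3L G5 and 2.78 and 2.90 in Tub-3L G5P. Without the driver, Obp57d gave 6.02 and 6.09 in Tub-3L G20*, 6.10 and 6.03 in UAS-3L G5, 5.89 and 6.11 in w1118, and 5.90 and 6.01 in UAS-3L G1. It was highest in Tub-3L G2, at 0.83 ± 0.13 relative to UAS-3L G1, under the 2-fold threshold, and fell by 1.5 in Tub-3L G4, 2.42 in Tub-3L G5 and 3.11 in Tub-3L G5P (adjusted p = 5.28e-10). Its interval overlaps that of the cuticle protein gene Cpr57A in RefSeq. Obp57a and Obp57e stayed under the lower quartile on every array and were not called.

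In the Obp99 group, Obp99c fell with Obp99b in Tub-3L G5P, while Obp99d was not called. Obp99c had 8.82 and 8.51 in Tub-3L G1, 8.15 and 8.18 in Tub-3L G2, 8.39 and 8.37 in Tub-3L G4, 7.96 and 8.22 in Tub-3L G5 and 7.61 and 7.52 in Tub-3L G5P. Without the driver, Obp99c gave 8.60 and 8.64 in Tub-3L G20*, 8.88 and 8.78 in UAS-3L G5, 9.07 and 9.06 in w1118, and 8.50 and 8.87 in UAS-3L G1. The arrays of Tub-3L G5P were the lowest, and the log2 fold change there was -1.12 ± 0.13 (adjusted p = 1.08e-05), which became -0.94 and thus under 2-fold without UAS-3L G1 replicate 2. Its interval overlaps that of Gycalpha99B. Obp99d ranged from 3.97 to 5.36.

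Of the 11 Plus-C members measured, 1 rose in Tub-3L G2 and 1 fell in Tub-3L G4, beside 3.38% and 4.85% of all probe sets. In Tub-3L G5, 1 rose and 0 fell, beside 13.0% and 10.2%, and in Tub-3L G5P 0 rose and 2 fell, beside 15.2% and 13.7%. Their median log2 fold change was -0.17, -0.46 and -0.32 in Tub-3L G4, Tub-3L G5 and Tub-3L G5P, beside -0.03, 0.02 and 0.01 over all probe sets. Obp49a, which in adult taste sensilla lets bitter compounds suppress the response to sugar, had 7.46 and 7.37 in Tub-3L G1, 9.28 and 9.17 in Tub-3L G2, 8.69 and 8.55 in Tub-3L G4, 7.44 and 7.57 in Tub-3L G5 and 6.46 and 6.65 in Tub-3L G5P. Without the driver, Obp49a gave 8.25 and 8.31 in Tub-3L G20*, 8.42 and 8.40 in UAS-3L G5, 7.90 and 8.10 in w1118, and 8.29 and 8.33 in UAS-3L G1. Its arrays were the highest of all in Tub-3L G2 and the lowest in Tub-3L G5P, where it fell 3.38-fold relative to UAS-3L G1 (adjusted p = 1.02e-08). Tub-3L G2 against Tub-3L G1 gave 1.81 ± 0.10 (adjusted p = 1.75e-07).

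Obp50b had 4.39 and 4.35 in Tub-3L G1, 4.66 and 5.09 in Tub-3L G2, 4.56 and 4.25 in Tub-3L G4, 4.99 and 5.23 in Tub-3L G5 and 4.05 and 4.17 in Tub-3L G5P. Without the driver, Obp50b gave 4.48 and 4.21 in Tub-3L G20*, 4.50 and 4.72 in UAS-3L G5, 4.49 and 3.92 in w1118, and 3.99 and 3.54 in UAS-3L G1. It rose 2.16-fold in Tub-3L G2 (adjusted p = 0.00236) and 2.55-fold in Tub-3L G5 (adjusted p = 0.000183), yet UAS-3L G1 was the lowest group, and against UAS-3L G5 the differences were 0.26 and 0.50 and were not called. Without Tub-3L G2 replicate 2 the difference in Tub-3L G2 was 0.90, and without UAS-3L G1 replicate 2 it was 0.89. Obp50d had 3.03 and 3.20 in Tub-3L G1, 3.41 and 2.72 in Tub-3L G2, 2.68 and 2.54 in Tub-3L G4, 3.23 and 2.78 in Tub-3L G5 and 2.52 and 2.78 in Tub-3L G5P. Without the driver, Obp50d gave 3.63 and 3.65 in Tub-3L G20*, 3.28 and 3.28 in UAS-3L G5, 2.98 and 3.55 in w1118, and 3.85 and 3.65 in UAS-3L G1. It fell 2.20-fold in Tub-3L G4 and 2.14-fold in Tub-3L G5P, where UAS-3L G1 was the highest group, and against UAS-3L G5 these differences were -0.67 and -0.63, less than 2-fold. In Tub-3L G5P the difference also passed under 2-fold without UAS-3L G1 replicate 1 and without Tub-3L G5P replicate 1 (-0.97). Both genes were under the lower quartile in UAS-3L G1. Besides Obp49a, Obp50b and Obp50d, the 8 remaining Plus-C members were not called in any of the 8 comparisons.

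The remaining called members lie in the Obp83 group and at Obp47a. Obp83ef had 5.99 and 5.77 in Tub-3L G1, 5.52 and 5.55 in Tub-3L G2, 4.93 and 5.37 in Tub-3L G4, 4.71 and 4.45 in Tub-3L G5 and 4.61 and 4.74 in Tub-3L G5P. Without the driver, Obp83ef gave 6.29 and 6.52 in Tub-3L G20*, 6.65 and 6.56 in UAS-3L G5, 5.98 and 6.12 in w1118, and 6.49 and 6.27 in UAS-3L G1. The 6 arrays of Tub-3L G4, Tub-3L G5 and Tub-3L G5P were the lowest, and it fell by 1.23, 1.80 and 1.71 on the log2 scale (adjusted p = 8.34e-07 in Tub-3L G5P). Obp83g had 4.68 and 4.83 in Tub-3L G1, 5.25 and 5.18 in Tub-3L G2, 5.23 and 5.41 in Tub-3L G4, 4.33 and 4.24 in Tub-3L G5 and 3.79 and 3.55 in Tub-3L G5P. Without the driver, Obp83g gave 4.89 and 5.34 in Tub-3L G20*, 5.24 and 5.30 in UAS-3L G5, 7.14 and 7.23 in w1118, and 5.84 and 6.08 in UAS-3L G1. It was highest in w1118, above all other arrays, and lowest in Tub-3L G5P. It fell by 1.20 in Tub-3L G1 (adjusted p = 0.000142), 1.67 in Tub-3L G5 and 2.29 in Tub-3L G5P (adjusted p = 3.44e-08) and rose by 1.23 in w1118 (adjusted p = 9.3e-05). Against UAS-3L G5 the differences in Tub-3L G1 and Tub-3L G5 were -0.51 and -0.99, both less than 2-fold.

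Obp83cd, whose interval overlaps that of Obp83ef, had 4.28 and 4.07 in Tub-3L G1, 3.92 and 3.99 in Tub-3L G2, 4.80 and 4.66 in Tub-3L G4, 4.46 and 4.58 in Tub-3L G5 and 4.08 and 4.12 in Tub-3L G5P. Without the driver, Obp83cd gave 3.97 and 3.96 in Tub-3L G20*, 3.26 and 3.98 in UAS-3L G5, 5.08 and 5.38 in w1118, and 3.79 and 4.39 in UAS-3L G1. It was called only in w1118, the highest group (1.14 ± 0.22, adjusted p = 0.00253), and this difference was 0.84 without UAS-3L G1 replicate 1 and 0.99 without w1118 replicate 2. Obp47a had 4.19 and 4.23 in Tub-3L G1, 4.47 and 3.75 in Tub-3L G2, 3.19 and 3.51 in Tub-3L G4, 3.43 and 2.76 in Tub-3L G5 and 2.84 and 2.68 in Tub-3L G5P. Without the driver, Obp47a gave 4.13 and 4.30 in Tub-3L G20*, 4.76 and 4.72 in UAS-3L G5, 4.94 and 3.62 in w1118, and 4.83 and 4.79 in UAS-3L G1. Its 6 arrays of the later groups lay below all others, and it fell 2.75-fold, 3.27-fold and 4.14-fold in Tub-3L G4, Tub-3L G5 and Tub-3L G5P (adjusted p = 0.000267 in the last).

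Steps between successive measured generations showed where the members changed. The generation between Tub-3L G2 and Tub-3L G4 has no arrays, so a change over that step cannot be placed in 1 generation. From Tub-3L G1 to Tub-3L G2, 1 member was higher in Tub-3L G2 (Obp49a, 2.33%) and 2 were lower (Obp56d and Obp99b, 4.65%), beside 2.71% and 2.40% of all probe sets. In Tub-3L G4 relative to Tub-3L G2, 13 were higher (30.2%) and 2 lower (4.65%), beside 6.20% and 3.57%. These 13 were the 12 that rose against UAS-3L G1 and Obp56e (2.49 ± 0.13, adjusted p = 3.52e-08), and the 2 were Obp57d and Obp99b. The step to Tub-3L G5 from Tub-3L G4 was small. There 0 members were higher and 3 lower (Obp49a, Obp56h and Obp83g, 6.98%), beside 0.337% and 4.33% of all probe sets. The call of Obp56h was lost without either array of Tub-3L G5 or without Tub-3L G4 replicate 1 (adjusted p = 0.0558 to 0.128), and Obp83g passed under 2-fold without the second array of either group (-0.99 and -0.94). In Tub-3L G4 against Tub-3L G2, Obp19a had an adjusted p of 0.0705 without Tub-3L G4 replicate 2.

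Some members were lower in larvae with melanotic tumors than in Tub-3L G5, while most were not called. Obp19c was higher, with a mean of 5.96 against 5.37, less than 2-fold. In Tub-3L G5P relative to Tub-3L G5, 0 members were higher and 9 lower (20.9%), beside 2.88% and 10.5% of all probe sets. Of these 9, 7 had risen in Tub-3L G5 (Obp19b, Obp22a, Obp50b, Obp51a, Obp56e, Obp56f and Obp56g) and 2 had fallen (Obp56d and Obp99b). Obp99b differed most, by -2.93 ± 0.09 (adjusted p = 2.26e-10), followed by Obp51a with -2.04 ± 0.24 (adjusted p = 3.05e-05). The calls of Obp22a and Obp50b in this comparison lay at the 2-fold threshold, with -1.12 and -1.0, and both passed under it when each array was centred on its median. Quantile normalization gave -0.75 and -0.61. The lower quartile was 4.16 and 4.19 on the Tub-3L G5P arrays, against 4.55 and 4.56 on those of Tub-3L G5. Without Tub-3L G5P replicate 2 the value of Obp22a was -0.97, and without Tub-3L G5 replicate 2 or Tub-3L G5P replicate 1 that of Obp50b was -0.88 or -0.94.

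Within the fifth generation, Tub-3L G5 could be set against UAS-3L G5, which has arrays of its own. There 14 members were higher in Tub-3L G5 (32.6%) and 8 lower (18.6%), beside 12.2% and 10.6% of all probe sets. Obp56g differed by 6.48 ± 0.40 (adjusted p = 4.54e-08), Obp19d by 5.54 ± 0.51 (4.93 without UAS-3L G5 replicate 1 and 6.15 without UAS-3L G5 replicate 2) and Obp99b by -3.34 ± 0.09 (adjusted p = 4.27e-11). Obp69a, an antennal member, and Obp50e, a Plus-C member, were called in this comparison and not against UAS-3L G1, with 1.03 ± 0.24 and -1.16 ± 0.19. These 2 passed under 2-fold without Tub-3L G5 replicate 1 (0.93) and without UAS-3L G5 replicate 1 (-0.84). Obp56a became -0.91 without Tub-3L G5 replicate 1, and Obp56h was lost without the second array of either group (adjusted p = 0.0922 and 0.0965). Tub-3L G20* against UAS-3L G5 gave 0 calls in either direction among the members and 0% of all probe sets by limma. At an unadjusted p under 0.05, 2 members differed, beside 904 of all 16322 probe sets, and the methods' t-test called 0 members. The largest difference was that of Obp57b, -1.09 ± 0.24 (95% interval -1.61 to -0.58, adjusted p = 0.584).

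Whether the difference between larvae with and without the driver changed between G1 and G5 was tested with an interaction. This was (Tub-3L G5 minus UAS-3L G5) minus (Tub-3L G1 minus UAS-3L G1), called on its adjusted p alone. It was positive in 15 members (34.9%) and negative in 9 (20.9%), beside 22.3% and 23.9% of all probe sets. The negative share was thus near that of all probe sets. The largest values were those of Obp56g (6.06 ± 0.57, adjusted p = 3.21e-06), Obp19d (5.71 ± 0.72, adjusted p = 4.03e-05) and Obp51a (4.70 ± 0.34, adjusted p = 3.52e-07), and the most negative that of Obp99b (-3.36 ± 0.12, adjusted p = 1.77e-09). Over all 9 groups, limma's F test called 34 of the 43 members, beside 82.1% of all probe sets, so that members differed among groups about as often as other genes.

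**Figure D5:**
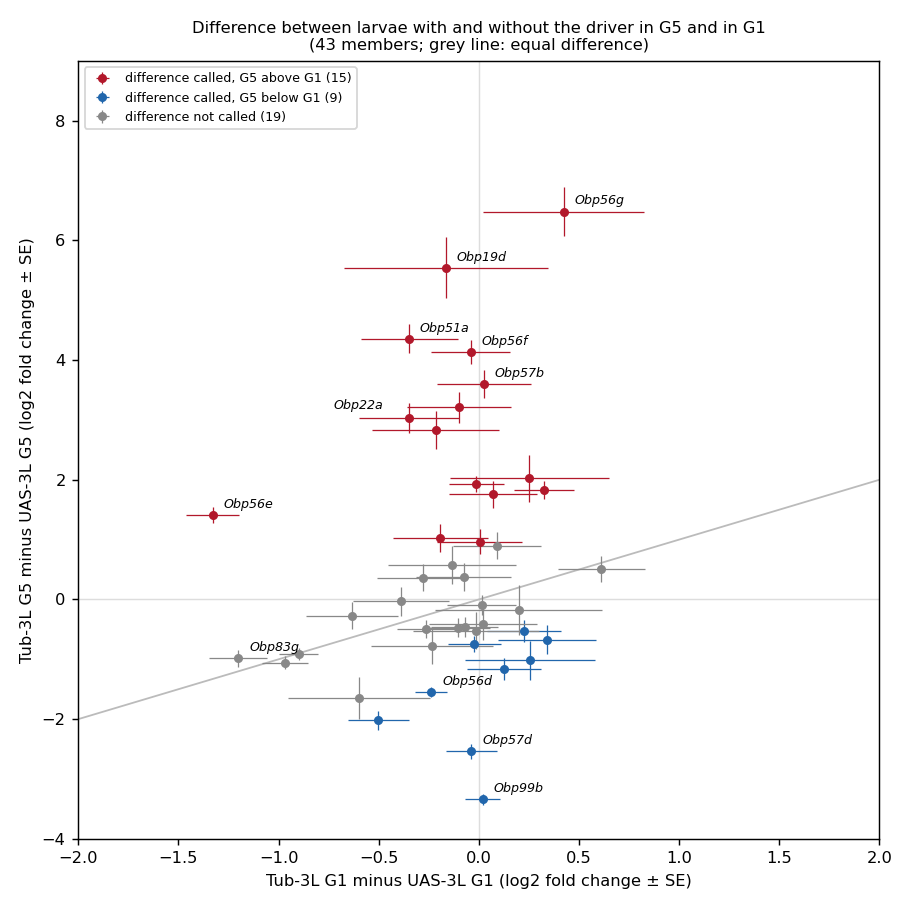
Log2 fold change of Tub-3L G5 against UAS-3L G5 (vertical axis) and of Tub-3L G1 against UAS-3L G1 (horizontal axis) for the 43 members, with standard errors, red and blue where the interaction was called. Obp56g and Obp19d lie highest and Obp99b lowest, and Obp56e is called lower with the driver in G1 and higher with it in G5.

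Few of the receptors that work beside odorant-binding proteins were called. Of 56 odorant receptors (Or), 53 gustatory receptors (Gr) and 56 ionotropic receptors (Ir) measured, 1, 0 and 1 rose in Tub-3L G5 and 0, 1 and 1 fell, beside the same shares of all probe sets as above, and their median log2 fold changes were -0.21, -0.18 and -0.24. In Tub-3L G5P, 0, 0 and 1 rose and 1 of each family fell. The mean log2 signal of each family lay between 2.52 and 2.91 on every array, well under the lower quartile, where a large decrease has little room on this scale.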

How the data were processed

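Values were deposited as log2 signals, which the authors computed from the scanned arrays (Affymetrix Drosophila Gene 1.1 ST) by Robust Multichip Analysis, in its RMA-sketch form for core genes, with Affymetrix Expression Console 1.3. RMA subtracts background and equalises the distributions of the arrays before values are summarised for each gene, so that a shift shared by most genes would be largely removed. The deposited values still differed between arrays, with lower quartiles from 4.16 to 4.57 and medians from 6.17 to 6.39. Groups were compared by the authors in the Transcriptome Analysis Console. All 16322 probe sets entered as deposited, without a filter. A table of 9 columns of group averages was not used. Gene symbols came from the annotation of the platform, and neighbours, chromosome arms and overlaps from RefSeq, Release 6 plus ISO1 MT, as names only. The build behind the array's annotation and scan batches are not given in the sources used here.

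With R 4.3.3 and limma 3.58.1, a mean for each of 9 groups was fitted to all 18 arrays (9 residual and 2.71 prior degrees of freedom). The fit was tested on simulated data. Members called in at least 1 of 8 comparisons are given with every array, and the 3 most similar genes are named for Obp99b and members called in at least 4. The members and lists were chosen with earlier results of these data known. Alternatives changed the call rule, test, control, scaling, filter and arrays. The methods' t-test is the 1-way analysis of variance of 2 groups named in the paper, at 2-fold. Of the list of 6 larval fat body genes, 0 were named on the array.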

Additional observations from a re-analysis of the deposited data

Results flagged for a closer look

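The difference between larvae with and without the driver was not the same in G5 as in G1 for 24 members, by limma's interaction test, which is what singled them out for a closer look. The values are log2 differences, G5 minus G1. In 15 members the difference was greater in G5: Obp56g (6.06, adjusted p = 3.21e-06), Obp19d (5.71, adjusted p = 4.03e-05), Obp51a (4.70, adjusted p = 3.52e-07), Obp56f (4.17, adjusted p = 1.8e-07), Obp57b (3.58, adjusted p = 3.07e-06), Obp22a (3.38, adjusted p = 8.69e-06), Obp19b (3.31, adjusted p = 1.27e-05) and Obp83b (3.04, adjusted p = 0.000138). The others were Obp56e (2.74, adjusted p = 1.8e-07), Obp18a (1.94, adjusted p = 5.67e-06), Obp19a (1.77, adjusted p = 0.021), Obp8a (1.68, adjusted p = 0.000809), Obp19c (1.51, adjusted p = 9.03e-05), Obp69a (1.23, adjusted p = 0.0094) and Obp99d (0.96, adjusted p = 0.0197). In 9 members it was more negative in G5, namely Obp99b (-3.36, adjusted p = 1.77e-09), Obp57d (-2.50, adjusted p = 2.87e-07), Obp83ef (-1.52, adjusted p = 0.000103), Obp56d (-1.31, adjusted p = 1.58e-06), Obp50e (-1.28, adjusted p = 0.00161), Obp56h (-1.27, adjusted p = 0.0399), Obp58c (-1.01, adjusted p = 0.0306), Obp50a (-0.76, adjusted p = 0.0312) and Obp99c (-0.72, adjusted p = 0.0075). The values of Obp50a, Obp99c and Obp99d lie under 2-fold. Leaving out single arrays lost some calls: that of Obp56h without any 1 of 6 of the 8 arrays (adjusted p up to 0.136), of Obp50a without any 1 of 5 (up to 0.133), of Obp58c without any 1 of 5 (up to 0.112), of Obp99d without any 1 of 4 (up to 0.0865) and of Obp19a without any 1 of 4 (up to 0.0853). In addition, the methods' t-test lost those of Obp50a, Obp99c and Obp99d. Groups of 2 arrays allow no test for an array that stands apart.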

How the results depend on the processing

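Of 152 calls of a member in a comparison, 78 held under every alternative that covered the call, and 0 reversed. Some alternatives did not cover all calls. Filtering out dim probe sets left 82 of the 152 to examine, and each changed control applied to 76. Without a fold threshold, the count was 5 instead of 2 in Tub-3L G1, 11 instead of 5 in Tub-3L G2, 4 and 3 instead of 0 in Tub-3L G20* and UAS-3L G5, 9 instead of 4 in w1118, 6 instead of 3 in Tub-3L G2 against Tub-3L G1, 14 instead of 3 in Tub-3L G5 against Tub-3L G4, and 19 instead of 9 in Tub-3L G5P against Tub-3L G5. The methods' t-test with Benjamini-Hochberg adjustment called 0 in Tub-3L G1, Tub-3L G2, w1118, Tub-3L G2 against Tub-3L G1 and Tub-3L G5 against Tub-3L G4, 6 instead of 15 in Tub-3L G4 against Tub-3L G2, 7 instead of 18 in Tub-3L G4, 15 instead of 23 in Tub-3L G5 and 14 instead of 22 in Tub-3L G5 against UAS-3L G5. In w1118, 2 were called by the methods' t-test and in a fit of the 2 groups alone. With UAS-3L G5, or both UAS-3L groups, as the control, 1 was called in Tub-3L G1, and with both 1 in Tub-3L G20*.

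Leaving out the dimmest 25% of probe sets removes 29 of the 43 members, and the counts became 8 in Tub-3L G4, 12 in Tub-3L G5, 13 in Tub-3L G5P, 7 in Tub-3L G4 against Tub-3L G2, 5 in Tub-3L G5P against Tub-3L G5, 11 in Tub-3L G5 against UAS-3L G5, 11 for the interaction and 14 for the F test. Apart from the F test, all 82 calls of the members that remained held, so calls were lost there only with the removed members. Leaving out single arrays gave 3 to 6 calls in Tub-3L G2 (3 without Tub-3L G2 replicate 2), 0 to 1 in Tub-3L G20* (1 without Tub-3L G20* replicate 2), 0 to 1 in UAS-3L G5 and 2 to 4 in w1118 (1 and 2 without UAS-3L G1 replicate 1). Centring arrays on their median moved the median of all probe sets to -0.17 in Tub-3L G4 and in Tub-3L G5, and 148 of the 152 calls held. The replicate numbers do not pair the arrays, since deviations of same-numbered arrays correlated between -0.0643 and 0.0394 over 36 pairs of groups, and with the replicate block all 152 calls held.

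Precision is limited by 2 arrays per group. In UAS-3L G1, 29 members lay under the lower quartile of the arrays, where a large decrease has little room on this scale. By the study's methods the pooled larvae were at a similar point of the third instar, the sources used here do not state their sex, and whole-larva RNA does not separate tissues.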

Other observations

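Other secreted or membrane proteins of chemosensory organs were also on the array. Of 20 CheA, CheB and Snmp genes measured, 3 rose and 1 fell in Tub-3L G4 against UAS-3L G1, beside 7.54% and 4.85% of all probe sets. In Tub-3L G5, 6 rose and 0 fell, beside 13.0% and 10.2%, and in Tub-3L G5P 2 rose and 1 fell, beside 15.2% and 13.7%. CheA7a rose by 4.66 ± 0.31 (SE) on the log2 scale in Tub-3L G5 (adjusted p = 7.96e-08) and by 2.80 in Tub-3L G5P (adjusted p = 5.51e-06). CheA75a rose by 2.59 in Tub-3L G5, CheA87a by 1.90 and CheA84a by 1.39. Snmp1, a membrane protein needed for pheromone sensing, rose by 1.08 in Tub-3L G5P (adjusted p = 0.00922), where CheA29a fell by 1.32 (adjusted p = 0.00145).

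Among the receptors, the called genes were few. Or71a rose by 1.68 in Tub-3L G5 (adjusted p = 0.000298), and Ir47a by 1.83 in Tub-3L G5 and 1.38 in Tub-3L G5P. Gr77a and Ir21a fell in both groups, by 1.06 and 1.09 in Tub-3L G5.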
